A study of Mus musculus with 2 samples.

Results

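Fibroblast growth factors (FGFs) are a family of related proteins through which the mesenchyme, epithelium and mesothelium of the growing lung act on each other. The genes described here are the 8 FGF genes Fgf1, Fgf2, Fgf7, Fgf9, Fgf10, Fgf11, Fgf13 and Fgf18. All were taken by name out of 43346 genes with an Ensembl identifier, together with the 37 transcripts that the deposited data assign to them. They were measured in the whole lungs of mouse embryos on day 15.5, while the airways were branching. The mice were of the strain B6NCrl, labelled healthy, with male and female embryos pooled and no treatment or altered allele named. Replicate 1 was a pool of lungs from 78 embryos and replicate 2 a pool from 62, and each pool gave 1 library. Both libraries form a single group, so the data hold no comparison of conditions and no test, and every level is given per library or as the mean ± SD (n = 2).

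Secreted FGFs bind FGF receptors, which are tyrosine kinases, together with heparan sulfate on the cell surface. In the lung, Fgf10 from distal mesenchyme and Fgf7 from mesenchyme act on the epithelium through a form of Fgfr2, while Fgf9 from mesothelium and epithelium acts on mesenchyme. Fgf11 and Fgf13 are different: they belong to the FGF homologous factors, which lack a signal peptide, stay inside the cell and, where studied, bind voltage-gated sodium channels. They are ligands by family name and not by mode of action.

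The libraries held 40395849.8 and 36601054.1 estimated reads, of which the 8 genes took 4500 and 3630. Levels are TPM, a share of all transcripts that corrects for length and so lets genes be set beside each other. All 6 epithelial markers and all 6 mesenchymal markers of the lung were detected in both libraries. The pools differed in markers of tissues outside the lung. The summed level of 7 thymus markers was 62.2 TPM in replicate 1 and 14.7 in replicate 2, and that of 6 liver markers 32.8 and 152. Which cells these transcripts came from was not tested. In a bulk sample, fewer cells of a type and less RNA per cell cannot be told apart.

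At the threshold of 1 TPM in both libraries, 7 of the 8 genes were detected and Fgf2 was not; by the deposited posterior mean TPM, of 2.29 and 1.55, Fgf2 passed as well. For comparison, 60.7% of 21474 protein-coding genes were detected. The levels were modest. By mean TPM, all 8 genes lay below 17.2 TPM, the median of the 14583 detected genes, although Fgf1 in replicate 1 was at 17.44. Fgf1 stood above 46.0% of detected genes and Fgf10 above 44.7%, whereas Fgf11 stood above 0.281%.

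**Figure D1:**
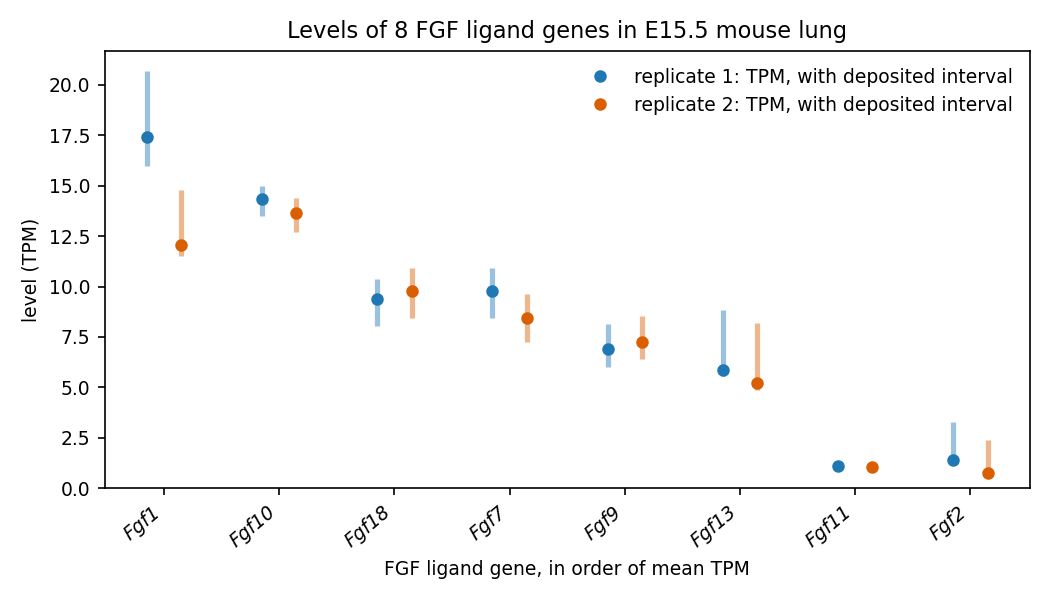
Level of each FGF gene in TPM (vertical axis) by gene in order of mean TPM (horizontal axis), with points for each library and bars for the deposited TPM interval. Fgf1 and Fgf10 are the highest, between 12.06 and 17.44 TPM, Fgf18, Fgf7, Fgf9 and Fgf13 lie between 5.21 and 9.79, and Fgf11 and Fgf2 between 0.74 and 1.38. The intervals of Fgf2 start above its points because they are placed around another estimate, the posterior mean.

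Fgf10 and Fgf7 are the mesenchymal ligands of the epithelial form of Fgfr2, and Fgf10 is required for the airway to branch. Fgf10 (ENSMUSG00000021732.10; GRCm38 chromosome 13, 118669791 to 118792115, plus strand) had 14.34 TPM in replicate 1 and 13.64 in replicate 2, from 1515 and 1335 estimated reads. Its deposited intervals, 13.5 to 15.0 and 12.7 to 14.4 TPM, overlapped, and its mean was 14.0 ± 0.495 TPM. Fgf7 (ENSMUSG00000027208.10; chromosome 2, 126034658 to 126091185, plus strand) had 9.79 and 8.46 TPM, a mean of 9.12 ± 0.94, from 513 and 381 reads. Fgf10 was above Fgf7 in both libraries, 1.46-fold and 1.61-fold, with separate intervals in each. Together the pair held 37.2% ± 1.08 of the summed TPM of the 8 genes.

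Fgf10 was carried almost wholly by a single transcript. Fgf10-201, which has 3 exons and a coding sequence of 627 nt, held 99.34% and 98.98% of the gene's TPM. The other 2 annotated transcripts are noncoding and start upstream of it; they had at most 1.47 reads in a library. An antisense gene, Gm16263, shares 123 exonic nt with Fgf10 and stood at 2.53 and 2.62 TPM. The use of strand in counting is not given in the sources used here, so reads in the shared stretch cannot be told apart.

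Fgf7 was split between a coding and a noncoding transcript. Fgf7-201, with the full coding sequence of 582 nt, held 64.63% of the gene's TPM in replicate 1 and 56.91% in replicate 2, from 430.79 and 304.89 reads. Fgf7-203, annotated as a processed transcript with no coding sequence, held 31.85% and 40.25%. It is only 853 nt long and its share rested on 62.21 and 63.19 reads. Its TPM was 3.12 and 3.41, with overlapping intervals of 1.77 to 4.49 and 2.21 to 4.66. Fgf7-203 shares its first exons with Fgf7-201 and then runs past the end of exon 2, so that only 104 nt at its end are its own. The stretch where the 2 transcripts part is given here, since the noncoding share rests on reads given to those 104 nt. Each line holds 30 nt of exon 2 (chr2:126035971-126036000, GRCm38, plus strand) and the next 30 nt of the transcript, with the first 2 of these in capitals.
Fgf7-201: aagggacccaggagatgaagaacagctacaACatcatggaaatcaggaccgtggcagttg
Fgf7-203: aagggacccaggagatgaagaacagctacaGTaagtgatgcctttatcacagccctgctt
In Fgf7-201 the next bases come from exon 3 (chr2:126088235-126088264), and in Fgf7-203 from the intron (chr2:126036001-126036030), where the capitals are the GT of the splice donor that Fgf7-201 uses. Whether the reads there come from a finished noncoding transcript or from unspliced RNA was not tested. Counting the full-length coding transcripts alone, Fgf7-201 and Fgf7-202, put Fgf7 at 6.68 and 5.06 TPM, a mean of 5.87 ± 1.15, and left its place in the order of levels as it was.

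Fgf9, a ligand of mesothelium and epithelium that keeps mesenchyme growing, had 6.89 and 7.27 TPM (ENSMUSG00000021974.10; chromosome 14, 58070547 to 58112720, plus strand), from 325 and 323 reads. Its mean was 7.08 ± 0.269 TPM, and its intervals of 6.03 to 8.16 and 6.42 to 8.54 overlapped. All 6 mesothelial markers were higher in replicate 1 after scaling, with a summed level of 77.7 TPM against 60.6 and none at 0. Fgf9 had a log2 ratio of replicate 2 over replicate 1 of 0.15, within the SD of 0.32 of genes between 5 and 10 TPM. The median log2 ratio was -0.30 over those markers and -0.04 over the 6 epithelial markers. The part of either tissue in the level of Fgf9 was not tested.

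Fgf18, a mesenchymal ligand known for its part in the later shaping of airspaces and in cartilage, had 9.38 and 9.79 TPM (ENSMUSG00000057967.8; chromosome 11, 33117430 to 33147400, minus strand). Its mean was 9.59 ± 0.29 TPM from 239 and 232 reads, and its intervals of 8.05 to 10.4 and 8.43 to 10.9 overlapped. The 6 markers of cartilage, a tissue that the tracheal and bronchial wall can bring along, summed to 101 and 99.2 TPM. Of this sum, 53.61 and 53.81 TPM were Sox9, which epithelial tips also express. Of the 6, 4 were detected and none was at 0. Beside Sox9, those detected were Hapln1 (18.86 and 18.16 TPM), Col2a1 (17.23 and 16.09) and Col9a2 (10.56 and 10.69). The cartilage genes Acan (0.38 and 0.29 TPM) and Matn1 (0.52 and 0.21) were not detected.

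In both Fgf9 and Fgf18 a minority of the level was given to a transcript with a shortened coding sequence. Fgf9-201, with 624 coding nt, held 69.12% and 71.04% of Fgf9, and Fgf9-203, with 273 coding nt, held 23.55% and 23.01%. Fgf18-201, with 621 coding nt, held 75.13% and 75.48% of Fgf18, and Fgf18-202, with 294 coding nt, held 24.87% and 24.52%. The support differed between them. Fgf9-203 had 133.66 and 127.98 reads, 2647 nt of its own and narrow intervals of 1.28 to 1.90 and 1.32 to 1.97 TPM. Most of those 2647 nt lie past position 58110174, where Fgf9-201 ends, as Fgf9-203 runs on to 58112720. Reads there bear on the longer end and cannot show where the coding sequence begins. Fgf18-202 had 55.04 and 52.66 reads, 101 nt of its own and wide intervals of 0.387 to 4.39 and 0.688 to 4.46 TPM. For Fgf9-203 the length in the deposited files, 3210 nt, differs from the 3593 nt of the newer annotation. That annotation gave the coding positions and the count of nt of its own. The openings of the coding sequences are shown to let the long and short forms be compared, 60 nt each with the start codon in capitals.
Fgf9-201: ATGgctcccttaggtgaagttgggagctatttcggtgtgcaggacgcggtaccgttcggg
Fgf9-203: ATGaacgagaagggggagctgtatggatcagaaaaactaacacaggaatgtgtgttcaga
Fgf18-201: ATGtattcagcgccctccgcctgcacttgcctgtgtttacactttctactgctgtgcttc
Fgf18-202: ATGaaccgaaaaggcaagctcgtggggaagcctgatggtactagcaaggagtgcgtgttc
The Fgf9-201 stretch lies at chr14:58073056-58073115 on the plus strand, and Fgf9-203 opens at chr14:58083275-58083304 and goes on in the next exon at chr14:58109333-58109362. Fgf18-201 opens at chr11:33147242-33147273 on the minus strand and Fgf18-202 at chr11:33124613-33124642. The coding sequence of Fgf9-203 was found whole inside that of Fgf9-201, in the same frame, after 117 codons. That of Fgf18-202 was found inside that of Fgf18-201, also in frame, after 109 codons. Both short forms therefore begin at an internal ATG and keep 43.8% and 47.3% of the long coding sequence, and Fgf18-202 lacks the opening that in Fgf18 encodes the signal peptide. Whether a protein is made from either was not measured.

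**Figure D2:**
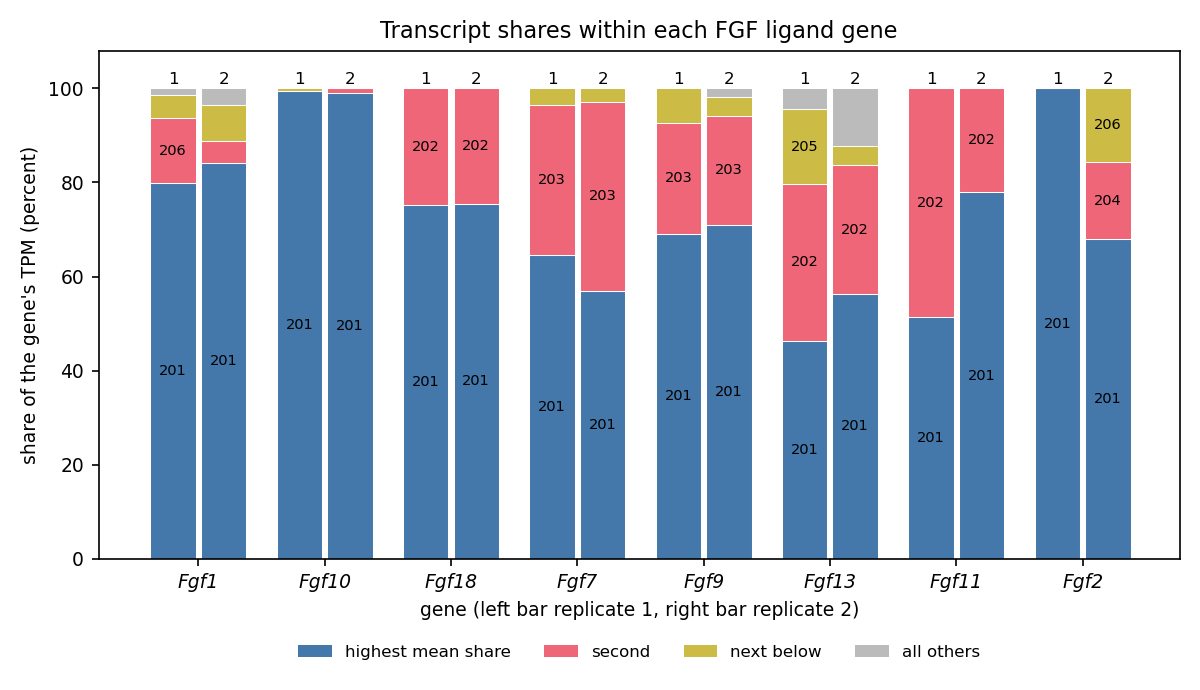
Share of each gene's TPM in percent (vertical axis) held by its transcripts in replicate 1 (left bar) and replicate 2 (right bar) of each gene (horizontal axis), with colours for the order of the mean share and numbers for the transcript. Fgf10 is nearly all Fgf10-201, Fgf18 and Fgf9 hold steady shares in both libraries, and Fgf11, Fgf13 and Fgf2 shift between libraries.

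Fgf1 and Fgf2 are the ligands without a classical signal peptide that bind FGF receptors outside the cell; Fgf1 can bind all of the signalling receptors. Fgf1 (ENSMUSG00000036585.11; chromosome 18, 38838673 to 38929472, minus strand) had 17.44 TPM in replicate 1 and 12.06 in replicate 2, from 1502 and 1030 reads. It was the highest FGF gene in replicate 1 and stood below Fgf10 in replicate 2, and its mean was 14.8 ± 3.8 TPM. After scaling, its log2 ratio of replicate 2 over replicate 1 was -0.46, a 1.38-fold difference, and its intervals of 16.0 to 20.7 and 11.5 to 14.8 TPM did not overlap. Its main transcript, Fgf1-201, also differed, with 13.93 and 10.15 TPM and separate intervals of 12.5 to 14.2 and 8.74 to 10.4. The short Fgf1-206, of 346 nt, added 2.41 and 0.55 TPM from 15.76 and 3.35 reads. Neuronal and glial markers were also lower in replicate 2: 7 of them summed to 35.9 and 21.4 TPM, 5 of 5 with a measured ratio were higher in replicate 1, and none was at 0. Of the 7 heart and skeletal muscle markers, 3 were higher in replicate 1 and 4 in replicate 2, with none at 0. Their near-equal sums of 376 and 402 TPM hide opposite differences, such as 80.27 and 29.88 TPM for Myh6, a myosin gene of the atria at this stage, and 25.76 and 119.37 for Myl2, a myosin gene of the ventricles. The part of these tissues in the level of Fgf1 was not tested.

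Fgf2 was the least certain member. It had 24 reads and 1.38 TPM in replicate 1 and 12.39 reads and 0.74 TPM in replicate 2 (ENSMUSG00000037225.9; chromosome 3, 37348346 to 37410108, plus strand). Its mean was 1.06 ± 0.453 TPM. The deposited posterior mean was higher, 2.29 and 1.55 TPM, with intervals of 1.4 to 3.3 and 0.8 to 2.41. Fgf2-201 held all of the gene in replicate 1 and 67.93% in replicate 2, a difference that rests on a few reads. Its length of 754 nt in the files is 462 nt in the newer annotation. That annotation also places a transcript that the files give to Fgf2, Gm43439-201, in a separate gene, Gm43439. Gm43439-201 had 0 reads in both libraries, but 19.23% and 17.37% of the gene by the posterior mean. Fgf2 also shares 640 exonic nt with Nudt6 on the opposite strand, which had 6.05 and 5.54 TPM, more than Fgf2 itself. Any reads counted in that stretch cannot be told apart. The gene span and the 640 nt are those of the newer annotation. By its positions, the transcripts counted for Fgf2 end at or before 37405377, short of the gene end at 37410108. Part of the gene, and perhaps of the shared stretch, was therefore not counted. The level of Fgf2 and its call as not detected hold for the counted transcripts only.

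Of the FGF homologous factors, Fgf13 was the higher. Fgf13 (ENSMUSG00000031137.13; chromosome X, 59062145 to 59568071, minus strand) had 5.88 and 5.21 TPM, a mean of 5.54 ± 0.474, from 303 and 252 reads. Fgf11 (ENSMUSG00000042826.9; chromosome 11, 69796068 to 69801857, minus strand) had 1.11 and 1.04 TPM, a mean of 1.08 ± 0.0495, from 79 and 65 reads. Fgf13 was 5.30-fold and 5.01-fold above Fgf11, with separate intervals in both libraries. Fgf11 was shared between 2 coding transcripts, and Fgf11-201 moved from 51.45% to 77.89% of the gene between the libraries on 36.93 and 48.41 reads. The pair held 10.6% ± 0.127 of the summed TPM of the 8 genes.

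Fgf13 makes proteins that differ in their first coding exon, which in these factors is known to set where in the cell the protein goes. Fgf13-201, with the longest coding sequence at 735 nt, held 46.39% and 56.31% of the gene, from 173.22 and 173.2 reads. Fgf13-202, with 576 coding nt, held 33.28% and 27.34%, from 103.17 and 69.8 reads. Fgf13-205, which starts far upstream, held 15.86% and 4.1% from 11.75 and 2.5 reads. The interval of Fgf13-202 reached from 0.0555 to 2.05 TPM in replicate 2, so its share is loosely fixed. The junctions that tell these transcripts apart are given with 28 nt of the exon of each in capitals and 20 nt of the shared exon (chrX:59131931-59131950, minus strand) in lower case.
Fgf13-201: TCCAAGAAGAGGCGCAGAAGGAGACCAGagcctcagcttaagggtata
Fgf13-202: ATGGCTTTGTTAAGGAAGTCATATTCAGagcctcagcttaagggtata
Fgf13-205: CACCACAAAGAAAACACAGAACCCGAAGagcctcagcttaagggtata
The capitals lie at chrX:59133877-59133904 for Fgf13-201, chrX:59166013-59166040 for Fgf13-202 and chrX:59250799-59250826 for Fgf13-205. In Fgf13-202 these 28 nt, from the ATG on, are all the coding sequence its first exon has.

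The starts of Fgf13-201 and Fgf13-202 also lie in unlike DNA. Start windows of 300 nt, 250 before to 50 after a start, were taken from the RefSeq table (GRCm38.p6) for 7 of the 8 genes. No window was taken for Fgf1, which says nothing of whether the table holds one. Fgf13 had 4 of the 10 windows taken. The start of the Fgf13-201 window is that of the transcript itself, and the start next to Fgf13-202 lies 76 nt from that transcript's start. Both are printed on the minus strand with each CG in capitals, Fgf13-201 at chrX:59134387-59134686 and Fgf13-202 at chrX:59166039-59166338.
Fgf13-201 start: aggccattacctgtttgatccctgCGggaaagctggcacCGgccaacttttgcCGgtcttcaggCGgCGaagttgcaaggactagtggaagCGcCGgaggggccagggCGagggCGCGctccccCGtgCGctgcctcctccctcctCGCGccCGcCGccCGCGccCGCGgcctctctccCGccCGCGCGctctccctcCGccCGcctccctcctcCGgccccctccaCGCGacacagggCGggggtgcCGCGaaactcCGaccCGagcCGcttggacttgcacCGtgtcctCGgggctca
Fgf13-202 start: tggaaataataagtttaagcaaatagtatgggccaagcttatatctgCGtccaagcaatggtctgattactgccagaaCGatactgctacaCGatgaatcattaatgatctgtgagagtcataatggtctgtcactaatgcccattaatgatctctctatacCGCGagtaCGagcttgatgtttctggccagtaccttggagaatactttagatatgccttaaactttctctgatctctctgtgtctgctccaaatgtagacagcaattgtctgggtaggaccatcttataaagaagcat
The Fgf13-201 window holds 37 CG dinucleotides, more than 94.4% of 32851 windows in the table, and the Fgf13-202 window holds 6, against a median of 7. The letters TATAAA, searched on both strands, are in the Fgf13-202 window, 37 nt past the start, and not in the other. They are in 13.6% of all windows. The window next to Fgf13-205, 124 nt from that transcript's start, was like that of Fgf13-201. It holds 40 CG, more than 96.1% of windows, and no TATAAA. The remaining Fgf13 window, 17501 nt from the nearest transcript start, holds 3 CG and no TATAAA. These are descriptions of the letters and not of any factor bound there.

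Set in order of mean TPM, the genes ran Fgf1, Fgf10, Fgf18, Fgf7, Fgf9, Fgf13, Fgf11 and Fgf2. A neighbouring pair counted as different where each library put them in the same order with intervals that did not overlap. That held for 2 of 7 neighbouring pairs, Fgf10 above Fgf18 and Fgf13 above Fgf11. In replicate 1 alone, without replicate 2, it held for 4. It held for 20 of all 28 pairs. Fgf10 was 1.53-fold and 1.39-fold above Fgf18. Fgf1 over Fgf10 was 1.22 in replicate 1 and 0.884 in replicate 2, so the top place changed hands between libraries. Fgf18 over Fgf7 was 0.958 and 1.16, and Fgf11 over Fgf2 was 0.804 and 1.41, so those places changed too. Fgf7, Fgf9, Fgf13 and Fgf18 could not be placed in order among themselves by this rule. The genes thus fell into 3 levels: Fgf1 and Fgf10, then these 4, then Fgf11 and Fgf2. Counting only transcripts with the longest coding sequence, Fgf10 at 13.9 ± 0.523 TPM and Fgf1 at 12.9 ± 2.62 changed places and the other 6 genes kept theirs. For Fgf2 that value has no use, since its main transcript is 3 nt short of the longest.

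Among the 6 genes above 5 TPM, Fgf1 alone had separate intervals between the libraries. Genes were called apart where the mean was at least 5 TPM, the scaled difference at least 2-fold and the intervals separate, and 0 of the 6 FGF genes above 5 TPM met this, beside 0.355% of 11261 genes. Separate intervals at any fold were found for 1 of the 6, Fgf1, beside 13.5% of the same genes. The log2 ratios of the other 5 ran from -0.14 for Fgf7 to 0.15 for Fgf9, with 0.00 for Fgf10. The SD of the log2 ratio was 0.22 over 2539 genes between 10 and 20 TPM, where Fgf1 and Fgf10 lie, and 0.32 over 1997 genes between 5 and 10 TPM. Fgf1, at -0.46, lay farther from 0 than the SD of its level, and the 5 others lay within theirs. Fgf2 had a log2 ratio of -0.83, beside an SD of 0.76 over 3316 genes between 0.5 and 2 TPM. With the libraries scaled, the median log2 ratio was -0.06 over the 8 genes and 0.01 over 15056 genes.

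**Figure D3:**
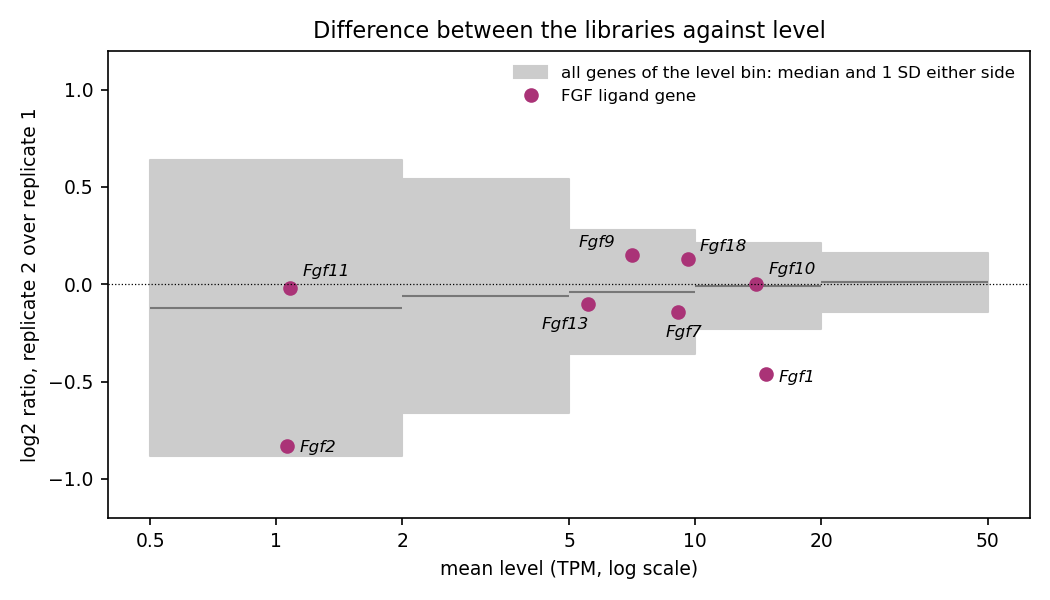
Log2 ratio of replicate 2 over replicate 1 after scaling (vertical axis) against mean TPM on a log axis (horizontal axis), with points for the FGF genes and grey bands for the median and 1 SD either side over all genes of a level. Fgf1 at -0.46 is below its band, and the other 7 genes lie within theirs.

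The receptors were more abundant than the ligands. Fgfr2, whose epithelial form is the receptor of Fgf7 and Fgf10, had 148.92 and 132.89 TPM over all its forms. That is 10.4 and 9.74 times Fgf10 in the same library. Fgfr3 stood at 52.1 ± 3.99 TPM, Fgfr1 at 27.4 ± 0.0495, Fgfr4 at 16.8 ± 0.106 and Fgfrl1, which lacks the kinase, at 23.0 ± 0.205. Fgf10 over Fgfr2 was 0.0995 ± 0.00449 and Fgf7 over Fgfr2 0.0647 ± 0.00147. All 8 FGF genes summed to 66.2 and 58.2 TPM, 0.262 ± 0.00709 of the summed level of Fgfr1 to Fgfr4. Without the homologous factors Fgf11 and Fgf13 that ratio was 0.234 ± 0.00667. Fgf1 came near Fgfr4, at 1.04 and 0.714 times its level. These are ratios of RNA in whole lung, with each receptor taken as a whole gene. They say nothing of protein, of receptor forms or of which cells hold them.

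Other genes on which FGF signals depend were for the most part present. Of 16 cofactor genes, which make or trim heparan sulfate, carry it, bind FGFs or act as coreceptors, 14 were detected. The highest was Gpc3, a cell surface heparan sulfate proteoglycan, at 371 ± 2.71 TPM. The lowest was Klb, the coreceptor of hormone-like FGFs, at 0.035 ± 0.0354 TPM from 1 and 5 reads. All 11 target and feedback genes were detected, from Etv5, a transcription factor induced by FGF, at 141 ± 0.863 TPM down to Spred3, an inhibitor of the pathway, at 1.29 ± 0.318. All 7 upstream regulators of lung FGFs were detected, from the mesenchymal factor Foxf1 at 130 ± 2.78 TPM to the mesothelial Wt1 at 5.59 ± 1.54. The median levels were 8.0 TPM for the 8 FGF genes, 19.0 for the cofactors, 11.5 for the targets and 67.5 for the regulators. Of 8 known partners of the homologous factors, mostly sodium channels, 1 was detected. That was Scn3a, with 1.68 and 1.26 TPM, and the lowest by mean was Scn4a, with 0.14 and 0.06. Fgf13 was above the highest of its listed partners in both libraries.

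**Figure D4:**
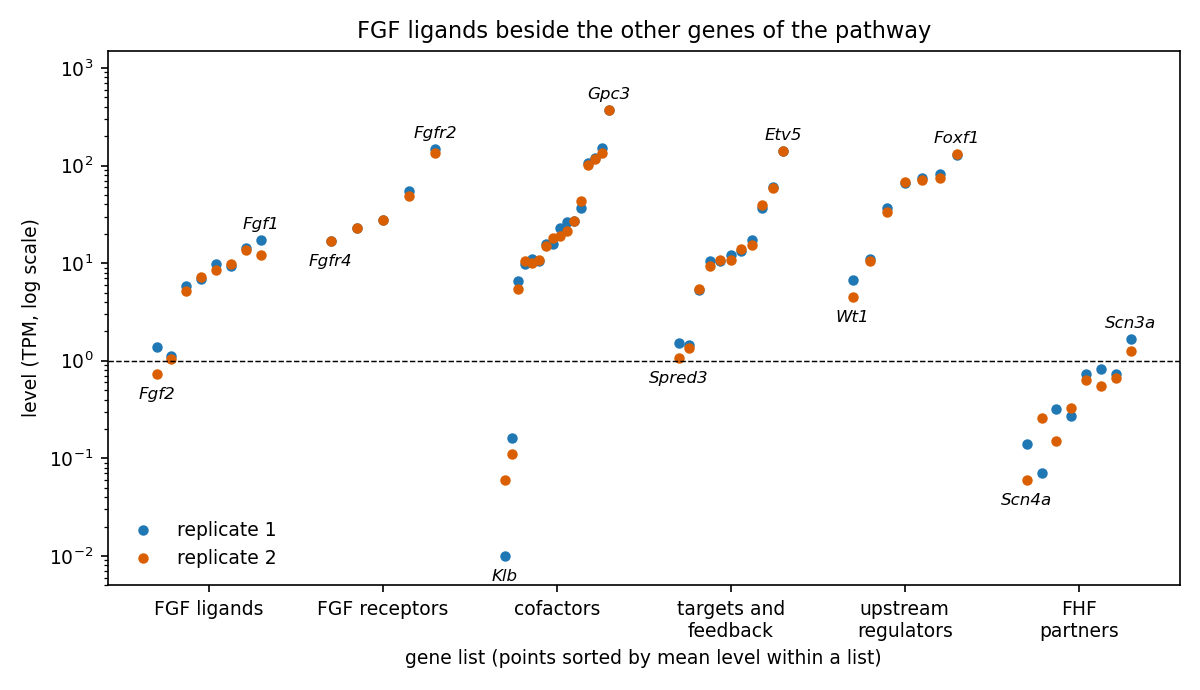
Level in TPM on a log axis (vertical axis) of the FGF genes and of 5 lists of pathway genes (horizontal axis), with points for each library and the highest and lowest gene of each list named. The dashed line is the threshold of 1 TPM; Fgf1, the highest FGF gene by mean and in replicate 1, has 17.44 and 12.06 TPM beside 16.75 and 16.9 for Fgfr4, the lowest receptor, and 1 of 8 partners lies above the line in both libraries.

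The remaining 14 genes of the family were all below 1 TPM in at least 1 library, so 0 were detected; without replicate 2 the count was 1, Fgf14. They summed to 3.63 and 2.16 TPM, against 66.2 and 58.2 for the 8 genes. Fgf14, another homologous factor, came nearest, with 1.6 TPM from 139 reads in replicate 1 and 0.5 TPM from 41 reads in replicate 2. Its mean of 1.05 TPM was near that of the members Fgf11 (1.08) and Fgf2 (1.06), so no gap in level parts the 8 genes from the rest. In replicate 1 Fgf14 stood above Fgf11 (1.11 TPM) and Fgf2 (1.38), and in replicate 2 below both (1.04 and 0.74). The intervals of Fgf14, 1.32 to 1.85 and 0.367 to 0.672 TPM, were separate and the scaled difference was 3.05-fold. Neuronal and glial markers, given above, were also lower in replicate 2, and their part in the level of Fgf14 was not tested. Fgf12, of the same group, had 0.75 and 0.58 TPM and Fgf5 0.42 and 0.27. The other 11 did not exceed 0.36 TPM in either library. Fgf4 had 0 reads in both, which allows up to 0.0387 TPM in replicate 1 and 0.0416 in replicate 2. The level that 3 reads give, the upper limit a count of 0 allows, differs by gene with its length, and limits of this kind cover counting error only.

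**Figure D5:**
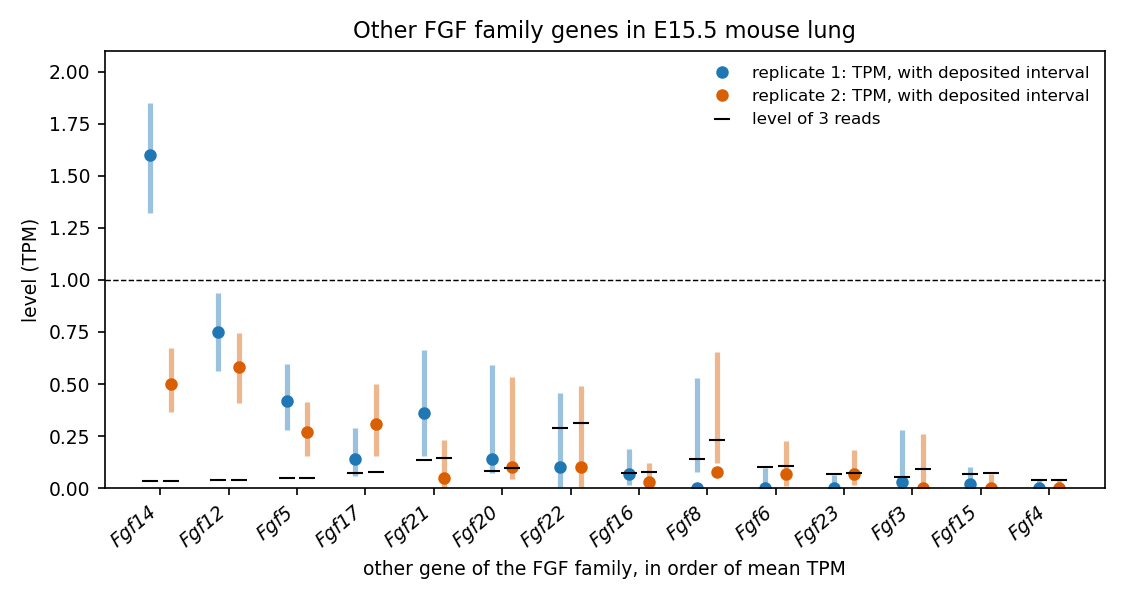
Level in TPM (vertical axis) of the 14 other FGF genes in order of mean TPM (horizontal axis), with points and deposited intervals for each library and short black bars for the level of 3 reads. Fgf14 in replicate 1, at 1.6 TPM, is the only point above the dashed line at 1 TPM.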

How the data were processed

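Per the labels, total RNA longer than 200 nt was taken by the mirVana method, and 10 ng entered each library with spike-ins. The authors deposited a gene and a transcript table per library, on mm10 with GENCODE M4, per the deposited text. Per the file headers these hold expected counts, TPM, posterior mean TPM with interval bounds (level not stated), FPKM (not used) and, for transcripts, the percent of the gene's TPM. The program is not given in the sources used here, nor is the use of strand. Names, types, coding lengths and positions came from GENCODE M21 (GRCm38) by identifier, which matched 97.96% of genes. Expected counts were rounded and scaled by TMM (edgeR 4.0.16, R 4.3.3), which moved the TPM of replicate 2 by 0.07 on the log2 scale. DESeq2 1.42.0 size factors were an alternative. Interval bounds of replicate 2 were scaled likewise for comparisons between libraries only. The libraries differed beyond sampling noise (chi-square 7.07 per degree of freedom, 17798 genes with 20 reads or more). The scripts were tested on simulated data. Members and lists were chosen with earlier results of these data known. All 8 members, any other family gene detected, the receptors, and the highest and lowest gene of each pathway list are named. Fgf14, Fgf12, Fgf5, Fgf4, Myh6, Myl2, Sox9, Hapln1, Col2a1, Col9a2, Acan and Matn1 were added after their values were seen. No likeness of pattern was computed, since 1 group of 2 libraries holds none.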

Additional observations from a re-analysis of the deposited data

How the results depend on the processing

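With 2 libraries, leaving out either one moves a mean by less than 1 SD whatever the data, so 38 such values say nothing of stability. Of the 61 other recomputed values, 42 moved by less than the spread between libraries, or for counts by less than 1.5 times, and 19 by more. The count of detected FGF genes ran from 6 at a minimum of 2 TPM, or with the longest coding transcripts alone (an alternative chosen after seeing the data), to 8 at 0.5 TPM or with the posterior mean TPM. The other family genes detected numbered 2 at 0.5 TPM, and from 0 to 1 with a single library left in. Neighbouring pairs in the order with separate intervals ran from 2 without replicate 1 to 4 without replicate 2. Genes apart between the libraries were 40 with DESeq2 size factors, 157 at a minimum mean of 1 TPM, 320 with no minimum, 81 at 1.5-fold and 1523 with separate intervals at any fold, also chosen after seeing the data. These counts differ by construction, as more genes enter. The posterior mean put Fgf2 at 1.92 and Fgf13 at 6.72 TPM, and lowered the share of Fgf2-201 to 34.9% and of Fgf13-201 to 40.9%; the cause was not tested. No paired analysis was possible because the labels hold 1 group. With 2 libraries the SD is itself loosely known, and the few reads of Fgf2 and Fgf11 limit what can be said of their transcripts.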
